A study of Mus musculus with 6 samples.

Results

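Expression of 8 smooth muscle type contractile genes was examined by RNA-seq in mouse embryonic fibroblasts (MEFs) that had been reprogramming towards pluripotency for 2 days. The genes were Acta2, Actg2, Tagln, Cnn1, Cnn2, Tpm1, Tpm2 and Myl9, taken by symbol from the deposited RPKM table. RPKM is reads per kilobase of transcript, scaled to the size of the library. All 8 were found among 18301 genes, and all 8 reached the mean of 1 RPKM required for testing, as did 11939 genes in all. The series asked how the CDP-ethanolamine pathway, which makes the membrane lipid phosphatidylethanolamine, acts on reprogramming. The MEFs were CBA/CaJ X C57BL/6J by strain. In every library the cells had been transfected with a short hairpin RNA (shRNA) and grown in iCD1, a defined reprogramming medium. Controls were 2 libraries with shLuc, an shRNA to luciferase. The 4 other groups held 1 library each: shEtnk1/2 (the label names Etnk1 and Etnk2, the kinases that start the pathway), shPcyt2 (against the enzyme that follows them in it), shLuc in iCD1 without ethanolamine (Etn-deprived), and shPebp1 (against a protein that binds phosphatidylethanolamine). The labels give no animal, culture or age, so p-values measure only the spread between libraries, which may be technical. In comparisons of single libraries it is the spread of the 2 controls. With the pathway libraries as 1 group it is the spread within both groups. The limma tests used below also borrow from the spread of other genes. Each library is bulk RNA, in which fewer cells of a type and less RNA per cell cannot be told apart.

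Smooth muscle cells, and fibroblasts that take on contractile features (myofibroblasts), pull through actin filaments and non-sarcomeric myosin. Acta2 and Actg2 encode the alpha and gamma smooth muscle actins of these filaments. Tropomyosins (Tpm1, Tpm2) lie along the filament, calponins (Cnn1, Cnn2) and transgelin (Tagln, also called SM22 alpha) bind to it, and Myl9 is a regulatory light chain of the myosin that pulls on it. Many of these genes are driven by serum response factor (SRF), which binds CArG boxes in promoters together with the coactivators myocardin and the myocardin-related factors Mkl1 and Mkl2. In reprogramming fibroblasts such genes belong to the mesenchymal programme that is shut down as epithelial genes come on.

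The sequences upstream of the start sites are shown because SRF sites are the textbook feature these genes share. RefSeq's table on build GRCm38.p6 held 6 of the 8 genes, without Tagln and Actg2. The 250 bases before the start were searched on both strands for short motifs. The first was the CArG box, the site of SRF. The second was a CArG-like box, which has 1 strong (G or C) letter in its weak core and so excludes exact boxes. The third was the MCAT element CATTCC, which binds TEAD factors. TATAAA was searched for as well and was in none of the 6 windows, beside 12.4% of all windows searched. None of the matches overlapped another. An MCAT element on the opposite strand appears as GGAATG. The sequences read 5′ to 3′ on the strand of the gene, end just before the start site, and have the matches in capitals.
Acta2: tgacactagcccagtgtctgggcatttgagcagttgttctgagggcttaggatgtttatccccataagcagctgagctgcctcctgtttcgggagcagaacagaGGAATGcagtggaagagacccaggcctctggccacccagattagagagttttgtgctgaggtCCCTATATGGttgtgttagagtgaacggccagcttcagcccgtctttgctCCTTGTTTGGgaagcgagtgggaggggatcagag
Cnn2: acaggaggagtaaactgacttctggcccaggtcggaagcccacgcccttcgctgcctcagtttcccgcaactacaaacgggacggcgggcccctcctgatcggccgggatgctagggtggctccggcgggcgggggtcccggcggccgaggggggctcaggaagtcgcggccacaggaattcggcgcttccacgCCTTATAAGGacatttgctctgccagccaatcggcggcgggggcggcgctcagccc
Myl9: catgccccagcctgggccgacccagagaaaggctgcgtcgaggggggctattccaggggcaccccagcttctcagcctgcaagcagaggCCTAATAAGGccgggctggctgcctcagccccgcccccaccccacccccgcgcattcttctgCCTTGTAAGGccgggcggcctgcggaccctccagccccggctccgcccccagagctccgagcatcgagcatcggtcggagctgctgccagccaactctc
Tpm1: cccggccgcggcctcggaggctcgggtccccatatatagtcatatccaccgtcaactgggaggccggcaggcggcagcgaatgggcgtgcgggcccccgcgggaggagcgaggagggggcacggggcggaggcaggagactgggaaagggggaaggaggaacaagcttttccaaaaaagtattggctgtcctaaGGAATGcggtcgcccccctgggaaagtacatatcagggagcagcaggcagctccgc
These windows are chr19:34255374-34255623 (minus strand), chr10:79988350-79988599 (plus), chr2:156775214-156775463 (plus) and chr9:67049214-67049463 (minus). Acta2 held CArG-like boxes at -84 to -75 and -34 to -25 from the start, and an MCAT element at -146 to -141. Cnn2 held an exact CArG box at -56 to -47. Myl9 held an exact box at -161 to -152 and a CArG-like box at -99 to -90. Tpm1 held an MCAT element at -56 to -51, and the windows of Cnn1 and Tpm2 had none of the motifs. Of 32851 windows of the same length in the table, 1.47% held an exact CArG box, 7.24% a CArG-like box, 12.6% an MCAT element, and 0.670% at least 2 boxes of either CArG kind, as Acta2 and Myl9 did. A match is a description of these letters and shows no binding.

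The libraries held between 18467583 and 20020465 reads in genes, recovered from the RPKM values. Etnk1 was at 12.5 RPKM in shEtnk1/2 against 21.0 and 21.4 in shLuc. Etnk2 was between 0.333 RPKM (shEtnk1/2) and 1.00 (shLuc replicate 2), with 0.457 in shLuc replicate 1. Pcyt2 was at 29.9 RPKM in shPcyt2 against 42.0 and 40.05 in shLuc. It was also below both controls in Etn-deprived (33.5), shEtnk1/2 (35.6) and shPebp1 (38.3). Pebp1 had 250.4 RPKM in shLuc replicate 1, and 99.6 in shPebp1. The library labelled shLuc replicate 2 had 101 RPKM, close to the level in shPebp1, and the cause of this was not tested. Results are therefore also given against each control alone. Of 9 fibroblast markers, all 9 passed the filter, with a summed level of 9643 to 13125 RPKM. Of 10 markers of mature smooth muscle (Cnn1 and Actg2 among them) 5 passed the filter, with sums of 70.5 to 86.6 RPKM. Most of this was Actg2 (41.0 to 53.3 RPKM) and Smtn (18.5 to 24.4), while Lmod1 had 1.39 to 2.70. Myh11, the smooth muscle myosin heavy chain, had 0.227 to 0.763 RPKM and Myocd, myocardin, 0.0630 to 0.189. Sums for the other cell types were 61.6 to 69.8 RPKM for pericytes, of whose 7 markers 4 passed the filter and Pdgfrb, which fibroblasts also express, gave most, 4.23 to 9.25 for striated muscle, 21.7 to 25.5 for endothelium, nearly all of it Tek, and 44.4 to 59.7 for macrophages, mostly Lyz2. All 6 epithelial markers passed the filter, with a sum of 16.8 RPKM in shEtnk1/2, 27.4 and 28.6 in shLuc replicates 1 and 2, and 24.9 to 28.4 in the other 3. Of the single markers, Rgs5 (pericytes), Myog (striated muscle), Pecam1 and Cdh5 (endothelium) and Ptprc (leukocytes) had at most 0.365 RPKM in any of the 6 libraries. Other markers of these lists were expressed. Among pericyte markers Notch3 had 9.57 to 10.9 RPKM, Mcam 6.62 to 8.94 and Cspg4 3.97 to 4.57. The macrophage marker Cd68 had 4.34 to 6.32 RPKM, and Tnnt2 of striated muscle 1.29 to 2.92.

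The 2 control libraries were themselves apart in these genes, which bears on every comparison. All 8 were higher in the library labelled shLuc replicate 2 than in replicate 1, where 51.1% of all tested genes were, and the median difference in log2(RPKM + 1) was 0.26 for the 8 against 0.00 for all genes. Cnn1 differed most, by 0.91, and only 0.494% of tested genes had a larger gap in either direction. Tagln differed by 0.42 (2.79% of genes had a larger gap), Acta2 by 0.39 (3.50%) and Myl9 by 0.27 (8.99%). For Actg2 the gap was 0.24 (12.3%), for Tpm1 0.15 (27.7%), for Tpm2 0.07 (60.2%) and for Cnn2 0.01 (90.6%). Cnn1 was the 1 gene of the 8 whose controls were more than 0.5 apart, as for 1.81% of tested genes. Standard errors against shLuc were 0.06 for Cnn2, 0.08 for Tpm1, 0.09 for Tpm2, 0.10 for Actg2, 0.12 for Myl9, 0.24 for Acta2, 0.26 for Tagln and 0.56 for Cnn1. The part of the Pebp1 level in this gap was not tested.

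**Figure D1:**
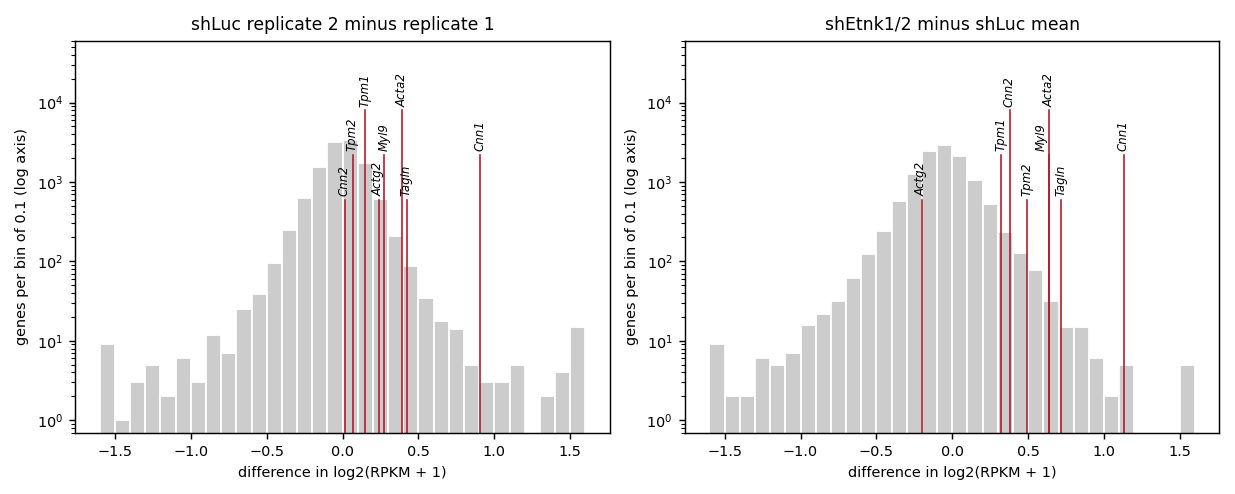
Numbers of tested genes (grey bars, log axis) by their difference in log2(RPKM + 1), between the 2 shLuc libraries (left) and between shEtnk1/2 and the shLuc mean (right), with the 8 contractile genes as red lines whose heights carry no value. Differences beyond 1.6 in size are in the end bars; the 8 genes all lie at or right of 0 on the left, and on the right 7 lie between 0.32 and 1.13 with Actg2 at -0.20.

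Among the actins, Acta2, the alpha smooth muscle actin and classic myofibroblast gene, was abundant throughout (mm10, chromosome 19, 34240336 to 34255373, minus strand, 2572 nt of transcript). Its level was 177 and 233 RPKM in shLuc replicates 1 and 2, 317 in shEtnk1/2, 259.9 in shPcyt2, 238 in Etn-deprived and 173 in shPebp1. All 3 libraries with the pathway inhibited lay above both controls, though Etn-deprived exceeded shLuc replicate 2 by less than the counting intervals of the 2 values, and shPebp1 was level with shLuc replicate 1 within them. The behaviour of Actg2, the gamma smooth muscle actin (chromosome 6, 83512909 to 83536251, minus strand, 1315 nt), was different. It had 45.1 and 53.3 RPKM in the shLuc libraries, 42.5 in shEtnk1/2, 42.5 in shPcyt2, 41.0 in Etn-deprived and 45.9 in shPebp1. Its 3 pathway libraries lay below both controls, but every pair of neighbours in its order overlapped in counting interval except the top library, shLuc replicate 2, and the next. Its highest level was 1.30 times its lowest, the smallest range of the 8 genes. In windows of 50 bases, 0.326% of Acta2 exon sequence also occurred in another gene, Actg1 among them, and none for the other 7. In windows of 100 bases, the length of the reads, none did for any of the 8 genes.

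Of the filament-binding genes, Tagln (chromosome 9, 45929628 to 45936058, minus strand, 1586 nt), an early marker of the smooth muscle lineage, had 68.8 and 92.7 RPKM in shLuc replicates 1 and 2. It had 132 RPKM in shEtnk1/2, 105 in shPcyt2, 88.3 in Etn-deprived and 59.8 in shPebp1. The shRNAs against the pathway lay above both controls, Etn-deprived between them and shPebp1 below both. Cnn1, the calponin found mainly in smooth muscle (chromosome 9, 22099253 to 22109221, plus strand, 1987 nt), was the lowest of the 8. Its level was 1.92 and 4.48 RPKM in the controls, from 77 and 175 reads. In shEtnk1/2 it was 7.74 RPKM (304 reads, 95% Poisson interval 6.90 to 8.66), in shPcyt2 5.85, in Etn-deprived 5.33 and in shPebp1 2.03. Cnn1 had the widest range of the 8, 4.03-fold, and its shPebp1 and shLuc replicate 1 values overlapped. Cnn2, the calponin of many non-muscle cells (chromosome 10, 79988600 to 79995400, plus strand, 1782 nt), was far more abundant and its controls nearly coincided. Cnn2 was at 189 and 191 RPKM in shLuc, 247 in shEtnk1/2, 217 in shPcyt2, 194 in Etn-deprived and 183 in shPebp1. Only shEtnk1/2 and shPcyt2 stood clear of the other 4 libraries by counting interval.

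**Figure D2:**
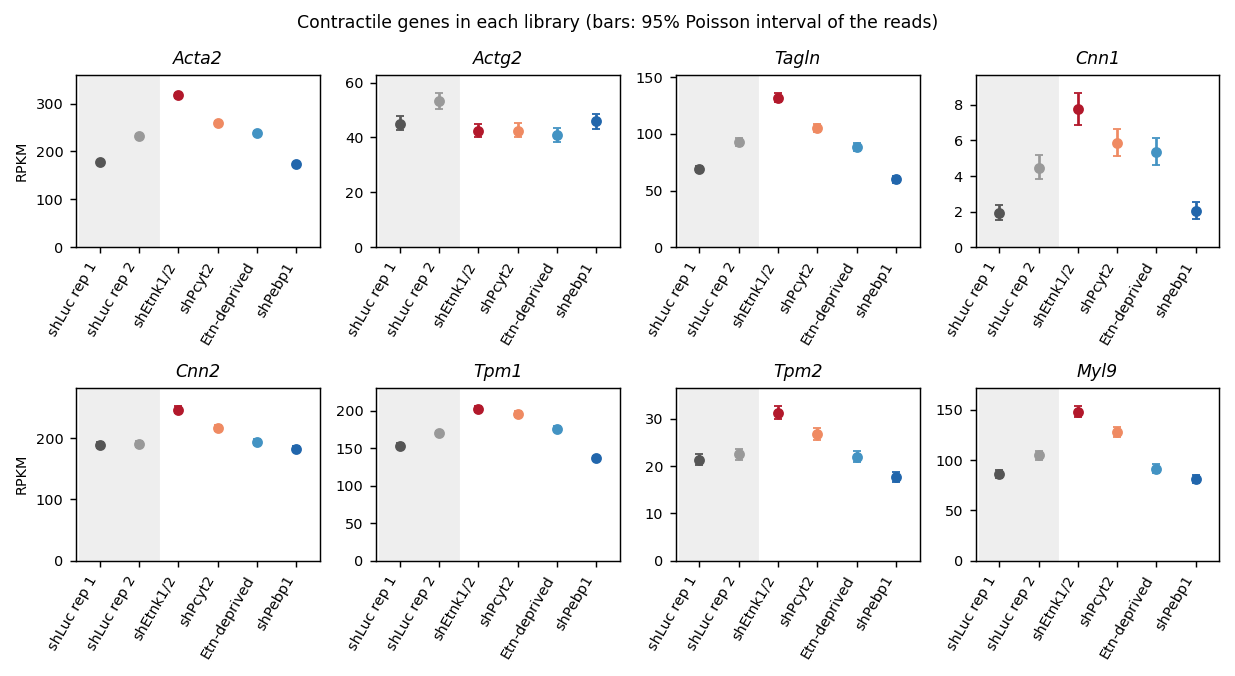
RPKM of each of the 8 genes (y axis, from 0) in each of the 6 libraries (x axis), as points with 95% Poisson intervals from the recovered reads, which cover counting error only; the shaded libraries are the controls. The order shEtnk1/2 highest and shPcyt2 next recurs in all genes except Actg2, which spans 41.0 to 53.3 RPKM.

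The tropomyosin Tpm1 (chromosome 9, 67022593 to 67049213, minus strand, 3279 nt) had 153 and 170.2 RPKM in the controls, 202 in shEtnk1/2, 195 in shPcyt2, 176 in Etn-deprived and 137 in shPebp1. Its shEtnk1/2 and shPcyt2 levels overlapped in counting interval, and shPebp1 was clear of all other libraries at the low end. The values sum every Tpm1 transcript, and the gene is spliced into muscle and non-muscle forms. Tpm2, the second tropomyosin (chromosome 4, 43513726 to 43523554, minus strand, 3326 nt), had 21.4 and 22.4 RPKM in shLuc, 31.2 in shEtnk1/2, 26.7 in shPcyt2, 21.9 in Etn-deprived and 17.7 in shPebp1. Etn-deprived fell between the close controls, with shPebp1 below them. Myl9, the regulatory light chain (chromosome 2, 156775464 to 156781657, plus strand, 1083 nt), had 86.2 and 105 RPKM in shLuc replicates 1 and 2, 148 in shEtnk1/2, 128 in shPcyt2, 91.5 in Etn-deprived and 81.3 in shPebp1. As with Tagln and Tpm2, Etn-deprived lay between the controls.

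Summed over the 8 genes, the level was 743 and 871 RPKM in the shLuc libraries, 1128 in shEtnk1/2, 980.4 in shPcyt2, 856 in Etn-deprived and 699.7 in shPebp1. In 7 of the 8 genes shEtnk1/2 was the highest library and shPcyt2 the second, an order found in 3.47% of tested genes; in 12% shEtnk1/2 was the highest. The lowest library was shPebp1 in 6 of the 8 genes, as in 11.7% of tested genes. Levels spanned more than 0.5 on the log2(RPKM + 1) scale in 6 of the 8, and in 15.5% of tested genes. As a description over 6 libraries that share their normalization, Tagln followed the mean of the other 7 most closely (Pearson r = 1.00), then Acta2 (0.99), Tpm1 (0.96), Myl9 and Tpm2 (both 0.94), Cnn1 (0.93) and Cnn2 (0.89), while Actg2 had r = -0.31.

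The shEtnk1/2 library had higher RNA levels of Cnn2 and Tpm2 than the controls. Differences in most of the other contractile genes were larger but less certain. By limma on log2(RPKM + 1), with Benjamini-Hochberg adjustment over all 11939 genes and a threshold of 0.05, 2 of the 8 genes passed, both higher: Cnn2 and Tpm2. Of all tested genes 3.46% passed in either direction, and 1.09% of all tested genes passed as higher. Cnn2 rose by 0.38 (SE 0.06, adjusted p = 0.0136), or 1.30-fold. Tpm2 rose by 0.49 (SE 0.09, limma adjusted p = 0.0183), or 1.41-fold. These are the 2 genes whose controls were closest. Tpm1 differed by 0.32 (SE 0.08, limma adjusted p = 0.0532) and Myl9 by 0.64 (SE 0.12, limma adjusted p = 0.0653), both short of the threshold. Differences as large or larger came with wide intervals where the controls were apart. That of Acta2 was 0.64 (95% interval -0.38 to 1.66), that of Tagln 0.72 (-0.38 to 1.82) and that of Cnn1 1.13 (-1.26 to 3.51), with limma adjusted p of 0.389, 0.375 and 0.480. Actg2 had a difference of -0.20 (-0.44 to 0.04). The median over the 8 was 0.56, against -0.06 over all genes.

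Without regard to the test, shEtnk1/2 lay above both controls in 7 of the 8 genes, where 25% of all tested genes did, and below both for Actg2, as for 51.9% of genes. The 7 held against the higher control too: relative to the library labelled shLuc replicate 2 their differences ran from 0.25 (Tpm1) to 0.68 (Cnn1), and relative to replicate 1 from 0.38 (Cnn2) to 1.58 (Cnn1). With either control left out, so that the spread came from the other pathway libraries, no member passed, and 3 (without replicate 1) or 5 (without replicate 2) of all genes did. Neither call was kept when genes of every level were tested, where no gene passed; Tpm1 passed as well under median ratio scaling. By limma-voom on the recovered reads, which shares one estimate of spread widely between genes, 7 of the 8 passed (6.62% of tested genes), Actg2 being the exception. Fibroblast markers moved in the same library by limma, which called 3.46% of all tested genes, and 1.09% as higher. By that test 5 of 9 rose in shEtnk1/2 (Col1a1, Col1a2, Col3a1, Pdgfra and Dcn). Col1a1, a chain of type I collagen, had 3600.1 RPKM there against 2322 and 2523. The macrophage gene Lyz2 also rose by limma, and 2 of 6 epithelial genes fell, Cdh1 (E-cadherin, 6.04 RPKM against 10.9 and 9.35) and Spint2. The part of these in the contractile gene differences was not tested.

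**Figure D3:**
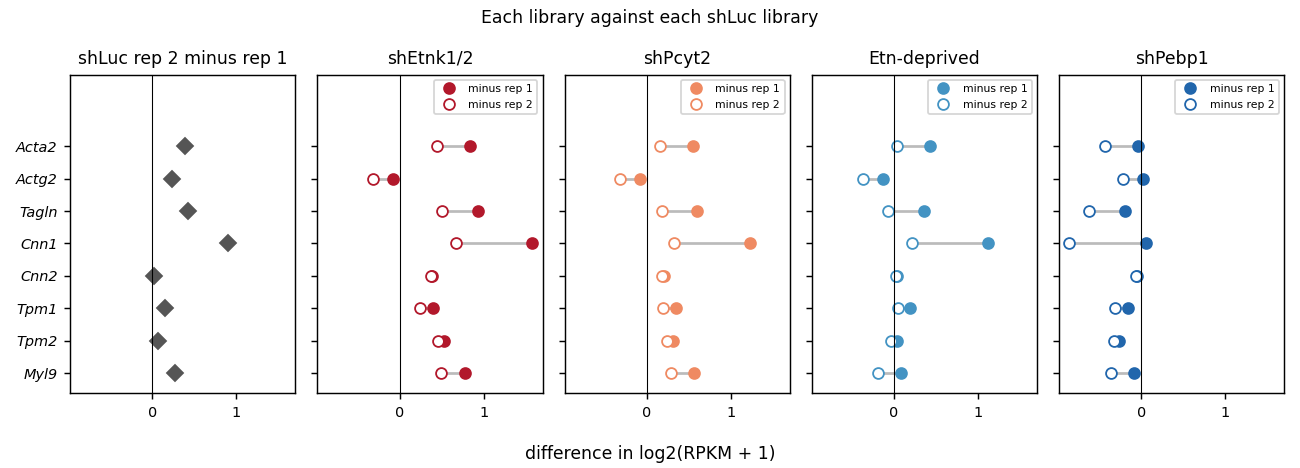
Difference in log2(RPKM + 1) (x axis) of the 8 genes (y axis) between the 2 shLuc libraries (left) and between each treated library and shLuc replicate 1 (filled) or replicate 2 (open). For shEtnk1/2 and shPcyt2 both points lie right of 0 in 7 genes; for shPebp1 all 8 open points lie left of 0, from -0.06 (Cnn2) to -0.86 (Cnn1).

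With shPcyt2 the same 7 genes were above both controls, as 29% of tested genes were, and Actg2 below both (39.4% of genes). None of the 8 passed limma (0.109% of tested genes did), 4 of the 8 had an unadjusted p under 0.05 (5.97% of genes), and limma-voom called 5 (0.31% of genes): Acta2, Tagln, Cnn1, Tpm1 and Myl9. In each of these 7 the difference was smaller than in shEtnk1/2. Myl9 differed by 0.43 (95% interval 0.12 to 0.73), Tpm2 by 0.28 (0.08 to 0.47), Tpm1 by 0.27 (0.10 to 0.44) and Cnn2 by 0.19 (0.05 to 0.33), with limma adjusted p from 0.599 to 0.762. Acta2 differed by 0.35, Tagln by 0.39, Cnn1 by 0.78 and Actg2 by -0.20, each with an interval that spanned 0. Against shLuc replicate 1 and the library labelled replicate 2 in turn, Acta2 differed by 0.55 and 0.16, Tagln by 0.60 and 0.18, Cnn1 by 1.23 and 0.32, Myl9 by 0.57 and 0.29, and Actg2 by -0.08 and -0.32. The median over the 8 was 0.45 and 0.19 in turn. Against the mean of both it was 0.32, against -0.02 over all genes.

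In medium without ethanolamine the contractile genes lay nearer to the controls. Tagln, Tpm2 and Myl9 were between the 2 shLuc libraries. Acta2, Cnn1, Cnn2 and Tpm1 were above both shLuc libraries, 4 of 8 where 36% of tested genes were. In each of these 4 the counting interval overlapped that of the library labelled shLuc replicate 2. Actg2 was below both controls (41.9% of genes). None of the 8 passed limma, although 3.8% of tested genes did, most of them lower; limma-voom called Acta2 and Cnn1 (5.86% of genes). Cnn1 differed by 0.66 (-1.72 to 3.05), Acta2 by 0.23 (-0.80 to 1.25), Tagln by 0.14 (-0.95 to 1.24) and Tpm1 by 0.12 (-0.05 to 0.29). Intervals were narrow for Cnn2 (0.03, from -0.11 to 0.17) and Tpm2 (-0.00, from -0.20 to 0.20), and wider for Myl9 (-0.05, from -0.36 to 0.25). Actg2 had a difference of -0.25 (-0.49 to -0.01, limma adjusted p = 0.230). The median over the 8 depended on the control: it was 0.14 against shLuc replicate 1 and -0.00 against the library labelled replicate 2.

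The shPebp1 library was the low end for most of these genes. Acta2, Tagln, Cnn2, Tpm1, Tpm2 and Myl9 were below both controls, 6 of 8 where 31.7% of tested genes were. In Acta2, Cnn2 and Myl9, however, the counting interval overlapped that of shLuc replicate 1. For Cnn2 it also overlapped that of the library labelled shLuc replicate 2. None passed limma (0.101% of tested genes did), and limma-voom called Tagln (0.109% of genes). Tpm2 differed by -0.29 (95% interval -0.49 to -0.10, limma adjusted p = 0.570) and Tpm1 by -0.24 (-0.41 to -0.07, limma adjusted p = 0.647). Tagln differed by -0.41 (-1.51 to 0.69), Cnn1 by -0.40 (-2.79 to 1.98), Acta2 by -0.23 (-1.25 to 0.79), Myl9 by -0.22 (-0.53 to 0.08), Actg2 by -0.09 (-0.33 to 0.15) and Cnn2 by -0.05 (-0.19 to 0.09). Against the library labelled shLuc replicate 2, in which Pebp1 was as low as in shPebp1, all 8 genes were lower (47.6% of tested genes were), with a median of -0.34. Against shLuc replicate 1, with Pebp1 at 250.4 RPKM, 6 of 8 were lower (47.4% of genes), with a median of -0.06, and Actg2 and Cnn1 were 0.02 and 0.05 higher.

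The libraries shEtnk1/2, shPcyt2 and Etn-deprived were also taken as 1 group of 3 against shLuc. Acta2, Cnn1, Cnn2 and Tpm1 were higher in every pathway library than in either control, 4 of 8 where 7.82% of tested genes were. In each of these 4, however, the counting intervals of Etn-deprived and the library labelled shLuc replicate 2 overlapped. Actg2 was lower in all 3 pathway libraries, as 15.9% of genes were. No member and no gene passed limma after adjustment (0%; 724 genes had an unadjusted p under 0.05, and limma-voom called 0). Mean differences were 0.86 (SE 0.28) for Cnn1, 0.41 (SE 0.15) for Acta2, 0.24 (SE 0.09) for Tpm1, 0.20 (SE 0.10) for Cnn2 and -0.22 (SE 0.09) for Actg2, and their limma adjusted p was 0.812. Against shLuc replicate 1 and the library labelled replicate 2 in turn, Cnn1 differed by 1.31 and 0.40, Acta2 by 0.60 and 0.21, and Actg2 by -0.10 and -0.34. Without shPcyt2, 8 genes passed, none of them members. With 10 possible splits the two-sided exact permutation test cannot give p under 0.1; it gave 0.1 for Cnn1 and Actg2, 0.2 for Acta2, Cnn2 and Tpm1, and 0.3 for Tagln, Myl9 and Tpm2.

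The pathway treatments were also set against each other. Between shEtnk1/2 and shPcyt2 no member passed limma (0.921% of tested genes did), and differences ran from -0.00 for Actg2 to 0.35 for Cnn1. The interval for Tpm1 was -0.15 to 0.24, and that for Cnn2, 0.02 to 0.35, left out 0 before adjustment. All 8 genes were higher in shEtnk1/2 than in Etn-deprived, as 40.9% of tested genes were. Again none passed (0.854% of genes did): Myl9 differed by 0.69 (0.34 to 1.04, limma adjusted p = 0.129), Tpm2 by 0.49 (0.27 to 0.72, limma adjusted p = 0.0686) and Cnn2 by 0.34 (0.18 to 0.51, limma adjusted p = 0.0722). By limma-voom 2 members differed in the first of these comparisons (2.12% of genes), Acta2 and Tagln, and 5 in the other (3.07%), Acta2, Tagln, Cnn2, Tpm2 and Myl9.

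The contractile genes belong to families whose other forms serve all cells, and the balance within families differed between libraries. Per length, Acta2 and Actg2 together made up 8.33% and 10.1% of the summed RPKM of the 4 actins (with Actb and Actg1) in shLuc replicates 1 and 2, and 12.6% in shEtnk1/2. The share of Tagln in the transgelin pair with Tagln2 was 29.5% and 35.8% in the controls, 47.1% in shEtnk1/2, 37.3% in shPcyt2, 36.6% in Etn-deprived and 26.7% in shPebp1. Myl9 made up 20.6% and 24.0% of the regulatory light chains (with Myl12a and Myl12b) in shLuc and 33.5% in shEtnk1/2. Tpm1 and Tpm2 made up 21.1% and 22.3% of the tropomyosins (with Tpm3 and Tpm4) in shLuc, 25.7% in shEtnk1/2 and 18.7% in shPebp1. Cnn1 stayed a minor calponin, from 0.422% in shLuc replicate 1 to 1.40% in shEtnk1/2. Here Cnn2, although one of the 8 genes, was counted with Cnn3 among the other forms. In all 5 families the share was highest in shEtnk1/2 and the library labelled shLuc replicate 2 exceeded replicate 1. Etn-deprived, with Myl9 between the controls in RPKM, had a Myl9 share of 27.1%, beside the falls of Myl12a and Myl12b given below.

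**Figure D4:**
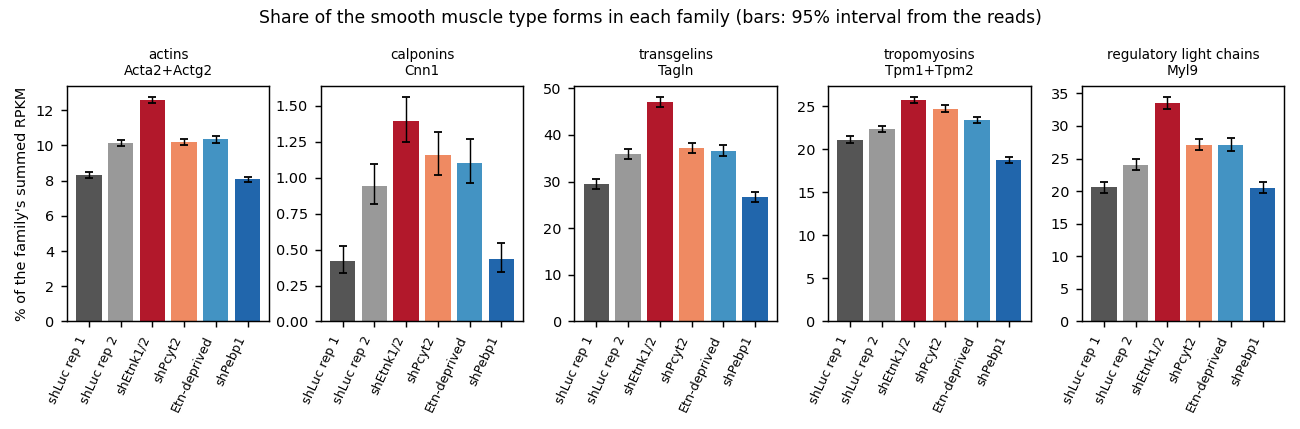
Share of the smooth muscle type forms in the summed RPKM of their family (y axis, %, from 0) in each library (x axis). The 95% intervals from the recovered reads cover counting error only. For the calponins the share is that of Cnn1 alone, with Cnn2 counted among the other forms. In shEtnk1/2 the share reaches 12.6% of actins, 1.40% of calponins, 47.1% of transgelins, 25.7% of tropomyosins and 33.5% of regulatory light chains, the highest of the 6 libraries in each panel.

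Other forms of these families were looked at in the same comparison of shEtnk1/2 with shLuc. Actb differed by -0.10 (95% interval -0.22 to 0.02), Actg1 by 0.11 (-0.04 to 0.25), Cnn3 by 0.14 (-0.00 to 0.28), Tagln2 by -0.15 (-0.30 to -0.01), Tpm3 by -0.14 (-0.28 to 0.00), Tpm4 by 0.09 (-0.04 to 0.23) and Myl12a by 0.00 (-0.14 to 0.14), none of them called by limma. Myl12b, a light chain of non-muscle myosin, fell by 0.34 on the log2 scale (limma adjusted p = 0.0210). Whether a member and its relative differed from each other in response was not tested.

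**Figure D5:**
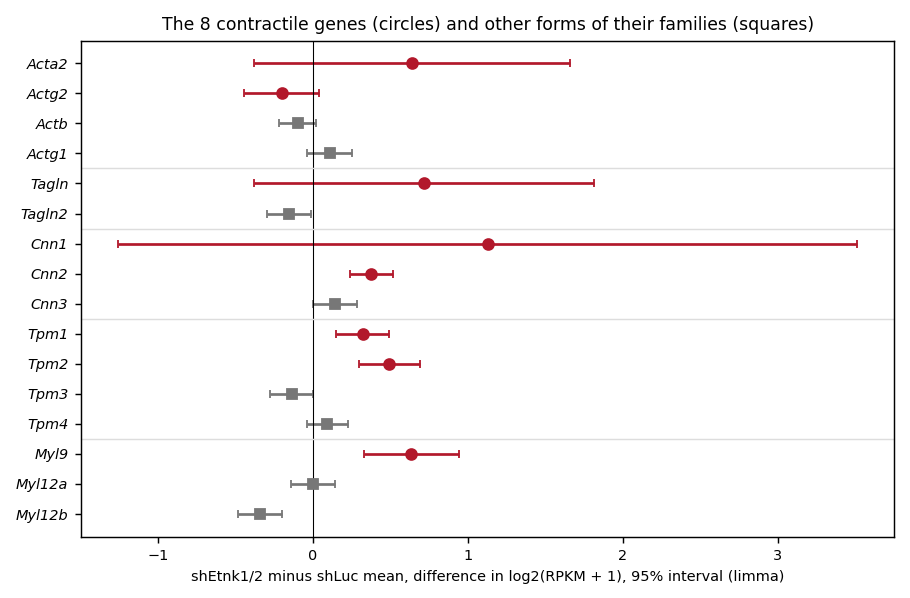
Difference in log2(RPKM + 1) between shEtnk1/2 and the shLuc mean (x axis) with its 95% limma interval, for the 8 contractile genes (red circles) and other forms of the same families (grey squares). Cnn2 (0.38) and Tpm2 (0.49) are the members called higher; the squares lie between -0.34 (Myl12b) and 0.14 (Cnn3).

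Around the 8 genes, 58 further genes of the actin and myosin machinery and of SRF and TGF-beta signalling were listed, of which 53 passed the filter. In shEtnk1/2 none rose and 2 fell, beside the 3.46% of all tested genes that passed in either direction: Myl12b and Pdlim1, a PDZ and LIM domain protein of actin fibres (-0.43, limma adjusted p = 0.0207). Srf itself was level (0.01, 95% interval -0.21 to 0.22; 14.0 to 15.2 RPKM over the 6 libraries), and Mkl1 differed by 0.23 (0.01 to 0.46, limma adjusted p = 0.244) and Mkl2 by 0.05. Of 20 tested genes listed for SRF, its coactivators and targets, 18 had a difference above 0, with a median of 0.14. This list also held the TGF-beta ligands and receptors Tgfb1, Tgfb2, Tgfbr1 and Tgfbr2, all among the 18, so it is not SRF signalling alone. Among all tested genes 35.7% were above 0 and the median was -0.06. Caldesmon (Cald1), an actin-binding partner of tropomyosin, differed by 0.22 (limma adjusted p = 0.0992) and the myosin light chain kinase Mylk by 0.22 (limma adjusted p = 0.465). The matricellular genes Cyr61 and Ctgf differed by 0.27 and 0.19, and the filament genes Vim and Des by 0.11 and 0.03, with limma adjusted p from 0.0735 to 0.957. Tgfb1, the ligand best known for inducing Acta2, differed by 0.14 (-0.09 to 0.37).

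In shPcyt2 none of the 53 passed, where 0.109% of all tested genes did. In Etn-deprived 6 of the 53 fell and none rose, where 3.8% of all tested genes passed in either direction. These were the light chains Myl6 (-1.18), Myl12a (-0.49) and Myl12b (-0.37), the actin-monomer binder Pfn1 (-0.39), and the focal adhesion proteins Vasp (-0.40) and Zyx (-0.28), with limma adjusted p from 2.1e-05 to 0.0499. In shPebp1, where 0.101% of tested genes passed, the only call among the 53 was Myl6, the essential light chain, which fell by 0.65 (limma adjusted p = 0.00124). Myl6 and Myl12a were higher in shEtnk1/2 than in Etn-deprived. Fewer genes in all were called for Etn-deprived once a trend with transcript length was removed. Whether the 6 falls there depend on transcript length was not tested.

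The 6 genes whose pattern was most like the mean of the 8 were sought among 564 with a mean of at least 10 RPKM and a range of at least 0.5. By Pearson r over the 6 libraries these were Mfge8 (0.99), Igf2 (0.98), Igfbp2, Oaf, Itm2a and Plat (all 0.97). Mfge8, a secreted glycoprotein, had 65.2 and 73.3 RPKM in shLuc, 91.5 in shEtnk1/2, 81.4 in shPcyt2, 74.7 in Etn-deprived and 57.7 in shPebp1. Igf2, a fetal growth factor, had 404 and 462 RPKM in shLuc, 632 in shEtnk1/2, 531 in shPcyt2, 501 in Etn-deprived and 360.4 in shPebp1. Their order over the libraries follows from how they were chosen.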

How the data were processed

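Polyadenylated RNA of 6 libraries was read as paired ends of 100 bases after 12 cycles of PCR, per the labels' protocols. The authors deposited 1 RPKM value per gene and library; per the submitters' processing notes, Bowtie 0.12.2 and the genome build mm10 were used, while the sources used here do not state the counting program, gene models or strand setting. For all 18303 lines the values gave whole reads within 0.0001 reads plus a relative 5e-08, and transcript length followed from RPKM per read. Whether these count reads or pairs is unknown. Of 2 symbols on 2 lines each, the line with the higher mean was kept, which left 18301 genes. The tests covered the 11939 genes whose mean reached 1 RPKM (median 2905 nt and 701 reads).

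Fits were made to log2(RPKM + 1), a scale that understates the changes of low genes, with limma 3.58.1 in R 4.3.3 (trended, robust empirical Bayes). Single treated libraries were assumed to vary as the shLuc pair did, which left 1 residual degree of freedom; the 3 pathway libraries against shLuc left 3. P-values were two-sided with Benjamini-Hochberg adjustment over all tested genes at 0.05. Poisson and share intervals (95%) cover counting error only. The script was tested on simulated data. Alternatives were a pseudocount of 0.1, no filter on low values, median ratio scaling, quantile normalization, limma-voom on the recovered reads, removal of a trend with transcript length, and leaving out each library. The members, the lists and the tests were chosen with earlier results of these data known. Named besides the 8 genes were called partner and marker genes (at most 4 partners per list and comparison), a set panel of relatives and regulators, and the 6 genes most alike over the libraries. An shPebp1 library without ethanolamine, named in the series design, was not among the 6 libraries and so was not analysed here.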

Additional observations from a re-analysis of the deposited data

How the results depend on the processing

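Of 440 repeats of the differences of single members, 402 kept their direction and their side of the threshold, 21 newly passed it, 6 no longer did and 11 changed sign. By limma-voom on the recovered reads, members called were 7 for shEtnk1/2, 5 for shPcyt2, 2 for Etn-deprived, 1 for shPebp1, 2 for shEtnk1/2 against shPcyt2 and 5 for shEtnk1/2 against Etn-deprived, and genes called in all were 790, 37, 700, 13, 253 and 366. With no filter on low values no gene and so no member was called in any single-library comparison (0 for each), and 5 genes in the pathway comparison. Genes called for shEtnk1/2 were 225 under median ratio scaling, 153 under quantile normalization and 181 with the length trend removed, against 413. For Etn-deprived these were 251, 197 and 97, against 454. For shEtnk1/2 against shPcyt2 they were 14, 12 and 11, against 110, and quantile normalization gave 45 for shEtnk1/2 against Etn-deprived, against 102. The pathway comparison gave 1 gene with a pseudocount of 0.1. The causes were not tested.

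Leaving out a library gave 3 to 5 genes and 0 members for shEtnk1/2, 0 to 3 genes for shPcyt2, 15 to 20 for Etn-deprived, 0 for shPebp1, and 0 to 8 for the pathway comparison (2 without shLuc replicate 1, 8 without shPcyt2). In Etn-deprived, leaving out a control moved Tagln from -0.068 to 0.36, Tpm2 from -0.034 to 0.033 and Myl9 from -0.19 to 0.085. In shPebp1 it moved Actg2 from -0.21 to 0.025 and Cnn1 from -0.86 to 0.051. Tpm2 in Etn-deprived was 0.016 under median ratio scaling and 0.029 under quantile normalization, and Myl9 there was 0.066 with the length trend removed. Actg2 between shEtnk1/2 and shPcyt2 was 0.043, 0.057 and 0.11 under those 3 settings. No paired analysis was possible because each treated group has 1 library, so the groups compared share fewer than 2 replicate numbers. The design rests on 2 controls that differ in Pebp1, and Cnn1, with 75 to 304 reads, is the member most limited by depth.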
